A study of Mus musculus with 16 samples.

Results

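The Cebp family genes Cebpa, Cebpb, Cebpd, Cebpe and Cebpg were described here through the accessible chromatin around them in mouse hematopoietic stem and progenitor cells (HSPCs). Peaks of all 16 ATAC-seq lists were merged wherever at least 1 bp was shared, and a region was kept when it overlapped the window from 20 kb upstream to 60 kb downstream of Cebpa, or the gene body of another member with 30 kb on either side (mm10, GENCODE annotation). This gave 104 regions of 296215 in all: 30 at Cebpa, 20 at Cebpb, 6 at Cebpd, 15 at Cebpe and 33 at Cebpg. Cebpa and Cebpg lie next to each other on chromosome 7, and 0 regions fell in both windows. The rule for the regions uses position alone, but the genes were chosen with earlier results of these data known.

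The study asked how the loss of the histone acetyltransferase p300 (Ep300) alters HSPCs that lack the DNA demethylase Tet2. ATAC-seq, which marks open chromatin by transposase insertion, was run on sorted bone marrow HSPCs of 4 genotypes with 4 libraries each. The study also names the cells of this assay as Lin- Sca1+ c-Kit+ cells. Every library pooled cells of a pair of age-matched mice of the same genotype. The WT group carried floxed Ep300 alleles without Cre, the P300KO group carried Mx1-Cre and floxed Ep300, the TET2KO group was Ep300 fl/fl and Tet2-/-, and the P300KO_TET2KO group was Mx1-Cre, Ep300 fl/fl and Tet2-/-. All were on a C57BL/6 background, and all 4 groups, WT included, received poly(I:C), which switches on the interferon-responsive Mx1-Cre, as young adults. Mx1-Cre acts in many interferon-responsive cells besides HSPCs, and Tet2 was absent from the germline on. Peaks within 1 kb of the Ep300 and Tet2 starts were listed in 16 of 16 libraries, which does not test the deletions. The labels separate replicates 1 and 2 from replicates 3 and 4, whose lists were longer (86039 to 110055 against 130610 to 137335 peaks), so both sets were kept apart in every test. WT replicate 1 covered the least genome, 32.0 Mb against 34.7 to 59.7 Mb in the other libraries. The methods state a minimum sequencing target, but the depth each library reached is not in the lists and is unknown. Of 12 HSPC marker genes, 9 had a peak at the start in 16 of 16 libraries, while the B cell gene Ms4a1 and the neutrophil gene Ly6g had none.

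C/EBP proteins are basic leucine zipper factors that pair with one another and bind a shared palindromic DNA element. C/EBPα, from Cebpa, starts the granulocyte and monocyte programme in progenitors and restrains cell division, and its gene is read under the control of a distal enhancer about 37 kb downstream that is active in early myeloid cells. C/EBPβ, from Cebpb, takes over when granulocytes are needed fast, C/EBPδ, from Cebpd, responds to inflammatory signals, and C/EBPε, from Cebpe, drives the last granulocytic steps. C/EBPγ, from Cebpg, has no strong activation domain of its own and limits the others by pairing with them. p300 is a coactivator that C/EBP proteins recruit to chromatin.

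Sequences of 300 bp around the strongest summit are given for 4 of the regions, because the genotype comparisons turn on them and because Cebpa +37.4 kb had the highest mean percentile by -log10 p among the distal regions of the 5 windows. Regions are named by the distance of that summit from the gene start, counted along the direction of transcription. The plus strand of GRCm38 (mm10) is shown, and capitals mark matches to any of 8 strings on either strand. The string for the C/EBP element was TTGCNNAA, and the one for Spi1 (PU.1) was GAGGAAGT. The Gata factors were searched with AGATAA. Their partner Tal1 was searched as the E-box CAGATG. Runx factors were represented by TGTGGT and the Myb factors by TAACNG. The last were the Ap1 string TGANTCA and a split Irf element. A match is a string of letters and not a measured binding site, and no 2 matches in the printed windows overlapped.
Cebpa +37.4 kb, chr7:35156503-35156802: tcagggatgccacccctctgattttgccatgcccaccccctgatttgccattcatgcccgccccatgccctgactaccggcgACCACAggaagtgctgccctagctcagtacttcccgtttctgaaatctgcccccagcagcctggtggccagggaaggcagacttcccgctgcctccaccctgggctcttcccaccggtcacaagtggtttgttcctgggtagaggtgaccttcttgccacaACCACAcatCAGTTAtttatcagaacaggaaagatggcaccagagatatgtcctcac
Cebpa +8.0 kb, chr7:35127166-35127465: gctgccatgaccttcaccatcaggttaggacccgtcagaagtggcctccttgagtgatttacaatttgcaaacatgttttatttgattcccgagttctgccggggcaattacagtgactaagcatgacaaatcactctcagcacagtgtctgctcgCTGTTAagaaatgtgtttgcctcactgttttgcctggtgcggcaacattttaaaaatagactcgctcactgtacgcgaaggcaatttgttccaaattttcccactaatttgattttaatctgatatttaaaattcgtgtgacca
Cebpe +6.2 kb, chr14:54705859-54706158: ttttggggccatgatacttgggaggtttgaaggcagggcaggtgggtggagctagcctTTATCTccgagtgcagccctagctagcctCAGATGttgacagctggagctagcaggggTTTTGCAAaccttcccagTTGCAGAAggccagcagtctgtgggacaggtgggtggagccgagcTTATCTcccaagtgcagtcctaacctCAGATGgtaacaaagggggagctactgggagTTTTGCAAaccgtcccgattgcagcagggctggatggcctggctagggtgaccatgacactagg
Cebpb -2.4 kb, chr2:167686329-167686628: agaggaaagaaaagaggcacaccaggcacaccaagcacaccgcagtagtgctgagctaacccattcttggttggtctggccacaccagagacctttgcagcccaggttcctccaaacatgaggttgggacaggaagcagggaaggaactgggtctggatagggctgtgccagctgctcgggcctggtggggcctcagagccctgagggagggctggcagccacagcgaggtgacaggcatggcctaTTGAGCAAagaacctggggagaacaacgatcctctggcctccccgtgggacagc

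The Cebpe +6.2 kb window held 3 matches to the Cebp string, 2 to Gata and 2 to Tal1. Only 180 of all 296215 regions (0.0608%) held at least 3 Cebp matches in such a window, and no other of the 104 did. The matches lay in a tandem repeat. Bases 36 to 144 of the window aligned with bases 158 to 264 at 78.1% identity over 114 aligned columns, so that Gata, Tal1 and Cebp strings recurred in the same order, starting at bases 59, 88 and 117 and again at 180, 206 and 237. The first copy held the remaining Cebp match, at base 135. A local alignment of the first with the last 150 bases scored as high in 76 of the 39310 regions present in every library (0.193%). The Cebpa +37.4 kb window held 2 Runx matches and 1 Myb match, the Cebpa +8.0 kb window 1 Myb match and the Cebpb -2.4 kb window 1 Cebp match. Over the 104 regions, 11 (10.6%) held a Cebp match against 11.8% of all regions, and 5 (4.8%) a Spi1 match against 6.6%. Gata matches stood in 11.5% against 13.8%, Tal1 in 18.3% against 24.0%, Runx in 20.2% against 28.2%, Myb in 17.3% against 26.7% and Irf in 1.0% against 4.0%. The Ap1 string was the only one of the 8 with a larger share among the Cebp regions, 17.3% against 10.4%, and the median GC content was 54.0% against 49.0%.

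Accessible sites at the Cebp genes were more widely shared than the merged regions taken as a whole. Of the 104 regions, 26 (25.0%) had a peak in 16 of 16 libraries against 13.3% of all merged regions, and 32 (30.8%) had a peak in 1 library against 45.6%. These shares describe the lists and were not tested, and regions around other genes were not compared. Most regions, 77 of 104, were distal, with a summit over 3 kb from the nearest coding start, and 15 of these were present in every library. By position 47 were intergenic, 47 intronic and 10 exonic. The Cebpg window was the densest, with 47.0 regions per 100 kb, and Cebpd the sparsest with 9.4, while Cebpa, Cebpb and Cebpe had 36.3, 32.5 and 24.3. At Cebpg, however, 15 of 33 regions were seen in 1 library and 4 in all 16, against 9 and 8 of 30 at Cebpa. The plot of percentile against distance shows this layout.

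**Figure D1:**
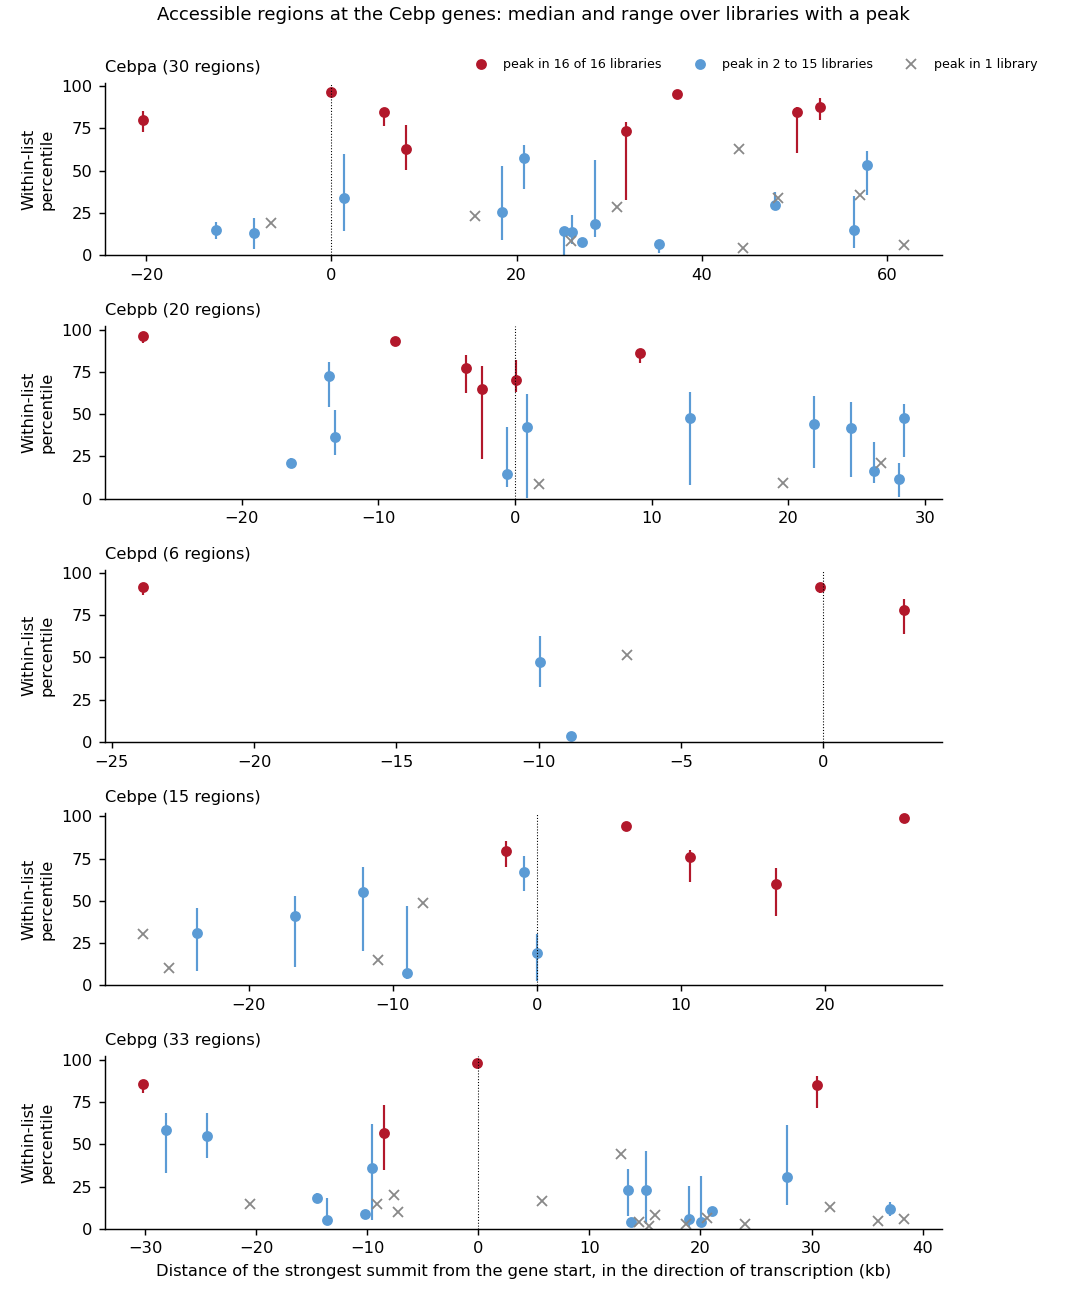
Each panel plots the regions of 1 gene window, with the distance of the strongest summit from the gene start in kb (x axis) against the within-list percentile (y axis, 100 for the strongest peak of a library). Symbols mark the median and lines the range over the libraries with a peak, and the 26 regions present in all 16 libraries (red) reach the highest percentiles, among them the starts of Cebpa, Cebpd and Cebpg.

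Strength was compared as the percentile of a region within the peak list of its library, by the peak caller's -log10 p, since peak heights of different libraries are not on 1 scale. The starts of Cebpa, Cebpd and Cebpg lay under strong peaks in every library. At Cebpa (ENSMUSG00000034957.10, chr7:35119293-35121928, plus strand) the region at the start, chr7:35118036-35119755, had a WT percentile of 97.1 ± 1.6 (SD, n = 4), with 96.8 ± 1.3 for P300KO, 96.5 ± 0.4 for TET2KO and 96.4 ± 0.7 for the double loss. The start of Cebpg (chr7:35046422-35056573, minus strand) ranged from 97.1 to 99.4 over the 16 libraries, and that of Cebpd (chr16:15887286-15891031, plus strand) from 88.4 to 93.3. The start of Cebpb (chr2:167688915-167690418, plus strand) was weaker, from 63.3 to 82.1. All 4 starts had overlapping ranges in the 4 genotypes. Cebpe (chr14:54710360-54712174, minus strand) was the exception. Its start itself was touched by a weak region in 8 of 16 libraries, 0 WT, 3 P300KO, 2 TET2KO and 3 P300KO_TET2KO, with percentiles of 2.9 to 30.1, and the nearest broad region, Cebpe -0.9 kb, was listed in 15 libraries at 55.8 to 76.5. The library without it was WT replicate 1.

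The region nearest to the planned distance of 37 kb, Cebpa +37.4 kb (chr7:35156190-35157926, intergenic), was open in every library and ranked first among all distal regions of the 5 windows, with a mean percentile of 95.2. The WT libraries stood at 92.9, 95.7, 96.6 and 94.6 and the P300KO libraries at 94.4, 94.2, 95.4 and 96.9. TET2KO gave 93.2, 95.1, 96.0 and 96.2, and P300KO_TET2KO gave 95.6, 93.1, 96.8 and 96.6. All 4 genotypes overlapped almost completely. For the test, the 39310 regions present in every library were ranked within each library and the ranks turned into normal scores, on which 1 unit is 1 SD over regions, and limma was fitted with genotype and replicate set, with Benjamini-Hochberg adjustment over all 39310. On that scale the effect of p300 loss over both Tet2 backgrounds was 0.06 ± 0.06 (SE) at Cebpa +37.4 kb (limma adjusted p = 0.682), and that of Tet2 loss was 0.05 ± 0.06 (limma adjusted p = 0.784).

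The Cebpa window held 6 further regions present in every library besides its start and +37.4 kb. Next in rank came Cebpa +52.7 kb (chr7:35171689-35172715), at a mean percentile of 87.3, followed by +5.7 kb and +50.3 kb with means of 83.8 and 82.5. Cebpa -20.3 kb, at the upstream edge, had a median of 79.8. Its WT libraries, at 81.5 to 85.1, were all above the P300KO libraries, at 73.5 to 80.1, an order held by 2.12% of the 39310 regions, and the P300KO_TET2KO libraries, at 75.6 to 80.8, also lay below all WT libraries, as in 3.45% of regions. TET2KO overlapped the other genotypes. On the normal scores, which rank only regions common to all libraries, WT, at -0.22 to 0.17, overlapped both P300KO, at -0.40 to -0.13, and P300KO_TET2KO, at -0.37 to -0.14. The effect of p300 loss over both backgrounds was -0.18 ± 0.08 (SE), with an exact permutation p of 0.00926 for this single region, and did not pass over all regions (limma adjusted p = 0.255). Cebpa +31.8 kb was the most variable of the 8, from 32.5 to 78.8, with means of 59.3 ± 18.7 for WT, 66.4 ± 12 for P300KO, 69.7 ± 7.8 for TET2KO and 75.6 ± 3.5 for the double loss (SD, n = 4). Neither loss passed there (limma adjusted p = 0.345 for p300 and 0.235 for Tet2).

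Cebpa +8.0 kb (chr7:35126580-35128060, intergenic) stood lower in both single losses than in WT or the double loss, but not beyond the threshold. WT libraries had percentiles of 73.1, 77.3, 64.1 and 63.8, and P300KO libraries 70.1, 50.7, 53.9 and 60.8. TET2KO libraries had 62.1, 65.6, 50.6 and 52.8, and P300KO_TET2KO libraries 76.2, 68.0, 60.9 and 60.1. The ranges of all 4 genotypes overlapped. The effect was -0.42 ± 0.20 (SE) for P300KO against WT and -0.53 ± 0.20 for TET2KO against WT (limma adjusted p = 0.31 and 0.364), and the interaction of both losses was 0.82 ± 0.29 (limma unadjusted p = 0.00934, adjusted p = 0.926). Over all 39310 regions the interaction was called in 0%, with 5.2% at an unadjusted p under 0.05.

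**Figure D2:**
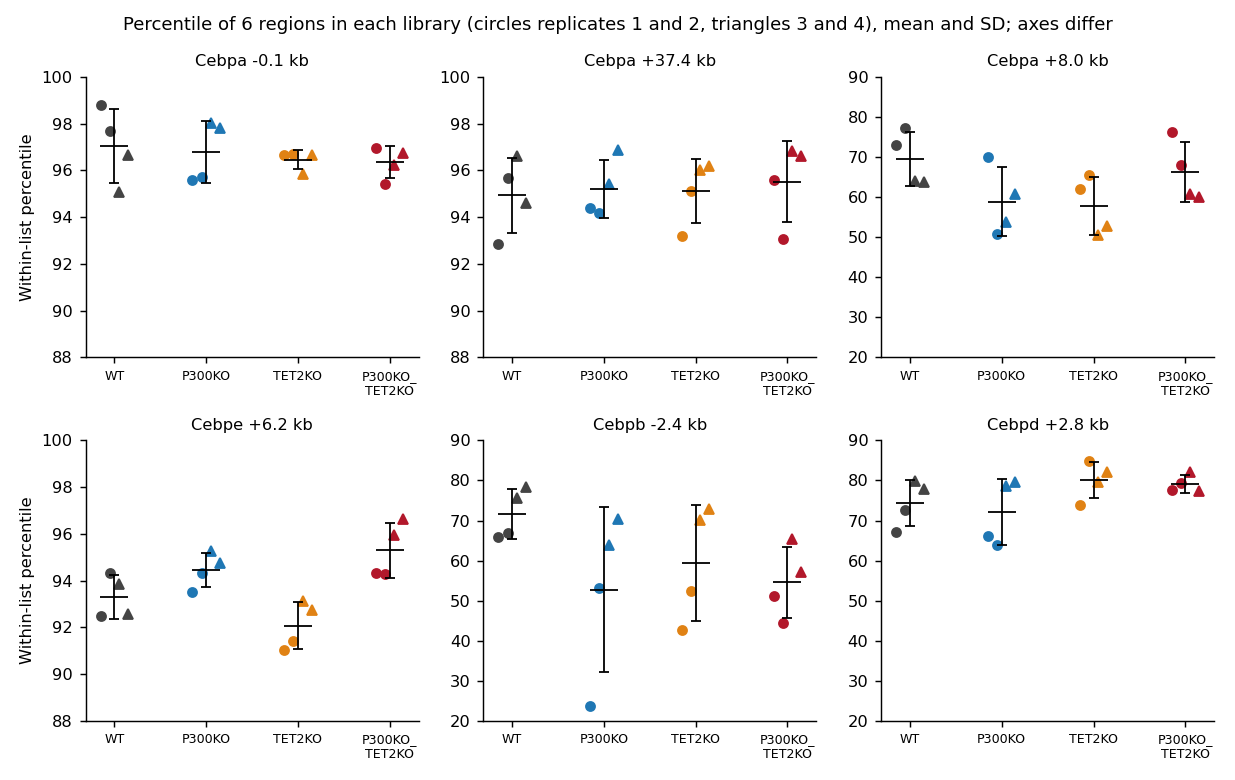
Percentile within the peak list (y axis, from 88 to 100 in 3 panels and from 20 to 90 in the other 3) of 6 regions in each library, by genotype (x axis), with circles for replicates 1 and 2, triangles for replicates 3 and 4 and bars for the mean and SD of 4 libraries. At Cebpe +6.2 kb the P300KO_TET2KO libraries sit between 94.3 and 96.6, all above the TET2KO libraries, while at the Cebpa start and Cebpa +37.4 kb the genotypes overlap.

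The Cebpe gene had the only region of the 5 windows called by the rank test. Cebpe +6.2 kb (chr14:54705629-54707112, intergenic, downstream of the gene) was the second strongest distal region, with a mean percentile of 93.8. The WT libraries stood at 92.5, 94.3, 93.9 and 92.6 and the P300KO libraries at 93.5, 94.3, 95.3 and 94.7. TET2KO gave 91.0, 91.4, 93.1 and 92.7, and P300KO_TET2KO gave 94.3, 94.3, 95.9 and 96.6. Every P300KO_TET2KO library lay above every TET2KO library, an order held by 1.54% of the 39310 regions, whereas P300KO and WT overlapped. Over both Tet2 backgrounds the normal score rose by 0.26 ± 0.05 (SE) with p300 loss (limma adjusted p = 0.0101, exact permutation p = 0.00309 within background and replicate set). The single contrasts gave 0.36 ± 0.08 for P300KO_TET2KO against TET2KO (limma adjusted p = 0.0528) and 0.16 ± 0.08 for P300KO against WT (limma adjusted p = 0.307), and their difference, 0.20 ± 0.11, was not called (limma adjusted p = 0.926). Tet2 loss gave 0.01 ± 0.05 (limma adjusted p = 0.952).

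The call at Cebpe +6.2 kb depended on the measure. With regions ranked by fold enrichment over the local background in place of -log10 p, the effect of p300 loss was -0.05 ± 0.09 (SE) and was not called (limma adjusted p = 0.749, where 2.01% of regions were called). The fold enrichment of the strongest peak in the region was 5.84, 9.81, 15.67 and 14.24 in WT and 10.7, 9.79, 14.68 and 14.05 in P300KO. It was 9.46, 10.57, 13.46 and 14.27 in TET2KO and 12.72, 13.39, 15.53 and 17.34 in P300KO_TET2KO, so that the last pair of genotypes overlapped over all 4 libraries but not within either replicate set. The region held 2 separate peaks in 15 libraries and 1 joined peak in P300KO replicate 1, and the strongest peak was the one near +6.2 kb throughout. Within replicates 3 and 4 the effect was 0.26 ± 0.05 and called (limma adjusted p = 0.0054, where 6.7% of 89111 regions were called), and within replicates 1 and 2 it was 0.19 ± 0.09 and not called (limma adjusted p = 0.571). In replicates 1 and 2, however, limma called 0% of 39440 regions, with 3441 at an unadjusted p under 0.05. It was also not called without the replicate set in the fit, at 0.26 (limma adjusted p = 0.0583, 0.511% of regions called), or with regions absent from some libraries added to the ranking, at 0.16 (limma adjusted p = 0.285, 0.0054% of regions called). A higher rank says that the site stood higher among the peaks of its own library and does not by itself measure more signal.

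The other regions at Cebpe present in every library did not pass for p300 or Tet2 loss. Cebpe -2.1 kb had a median percentile of 79.4, +10.7 kb of 75.9 and +16.6 kb of 59.7. Cebpe +25.5 kb, over exons of the neighbours Acin1 and 1700123O20Rik and within 1 kb of the Acin1 start, had the highest median of all, 98.7.

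At Cebpb the strongest sites lay within the GENCODE gene Tmem189, which runs on the other strand and reaches past the Cebpb start. Cebpb -27.2 kb, within 1 kb of a coding start of Tmem189, and -8.8 kb, in an intron of it, had median percentiles of 95.9 and 93.1, above the 70.2 of the Cebpb start itself, and Cebpb +9.2 kb, in an intron of A530013C23Rik, had 86.2. Cebpb -2.4 kb (chr2:167686300-167686857) had the widest range of the 26 regions. WT libraries had 65.8, 67.0, 75.5 and 78.3 there and P300KO libraries 23.6, 53.1, 63.9 and 70.4, while TET2KO had 42.5, 52.3, 70.2 and 72.9 and P300KO_TET2KO 51.2, 44.3, 65.4 and 57.1. By percentile, replicates 3 and 4 were higher than replicates 1 and 2 in every genotype, an order that the normal scores kept in WT and TET2KO only. The double-loss libraries all had lower percentiles than the WT libraries, as in 3.45% of the 39310 regions, and the other pairs of genotypes overlapped. On the normal scores used for the test, WT stood at -0.80 to -0.46, above all P300KO libraries at -2.42 to -0.94 and all P300KO_TET2KO libraries at -1.69 to -1.21, orders held by 2.38% and 4.15% of regions, while TET2KO, at -1.57 to -0.78, overlapped WT. The effect of p300 loss was -0.55 ± 0.18 (SE), with an exact permutation p of 0.00617 for this single region, but it did not pass over all regions (limma adjusted p = 0.103). It passed with percentiles over the common regions in place of normal scores, at -10.9 ± 2.9 (limma adjusted p = 0.0434, where 3.03% of regions were called). It also passed within replicates 3 and 4 alone, at -0.36 ± 0.10 (limma adjusted p = 0.0273, where 6.7% of 89111 regions were called). It passed when P300KO replicate 2 was left out, at -0.64 (limma adjusted p = 0.0446, where 2.83% of regions were called). In the other 15 fits that left out a library it was not called. Nor was it called by fold enrichment, without the replicate set in the fit, or with regions absent from some libraries added to the ranking. The same held with regions in at least 12 of 16 libraries, with a replicate block and within replicates 1 and 2 (0% of regions called).

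Cebpd had 3 regions in every library: its start, Cebpd -23.9 kb, within 1 kb of the start of Mzt2, with a median percentile of 91.4, and Cebpd +2.8 kb in its own exon, with 78.3. The last gave the largest Tet2 effect relative to its error at this gene. WT had percentiles of 67.0, 72.6, 79.8 and 77.9 and P300KO 66.1, 63.9, 78.6 and 79.7, against 74.0, 84.8, 79.6 and 82.0 in TET2KO and 77.6, 79.4, 82.2 and 77.3 in P300KO_TET2KO. The groups overlapped, and the effect of Tet2 loss was 0.34 ± 0.12 (SE; limma adjusted p = 0.165). The Cebpd start gave 0.15 ± 0.05 (limma adjusted p = 0.215). At Cebpg, besides the start, Cebpg -30.2 kb had a median of 85.6, +30.5 kb in an intron of Pepd 85.0 and -8.5 kb 56.9. None of them passed for either loss.

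Over the 26 regions tested, 0 were called in each of the 4 pairwise contrasts and 1 for p300 loss over both backgrounds. Over all 39310 regions the rank test called 0.178% for P300KO_TET2KO against TET2KO, 0.588% for P300KO against WT, 0.0178% for TET2KO against WT and 0.333% for P300KO_TET2KO against P300KO. The share called for p300 loss over both backgrounds was 1.09% higher and 1.91% lower, against 1 of 26 higher (3.85% of these regions) and 0 lower. Tet2 loss called 0 of 26 against 1.13% of all regions in either direction. At an unadjusted p under 0.05 the contrasts, in the same order, gave 1, 4, 2 and 0 of the 26 regions, where 8.18%, 15.9%, 11% and 9.22% of all regions had such a p. By that measure p300 loss gave 3 (11.5% against 17.4% of all regions) and Tet2 loss 4 (15.4% against 14.2%). The median effect of the 26 was -0.01 for p300 loss and 0.01 for Tet2 loss, and 0.01 over all regions for both. These contrasts share libraries and are not independent of each other.

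**Figure D3:**
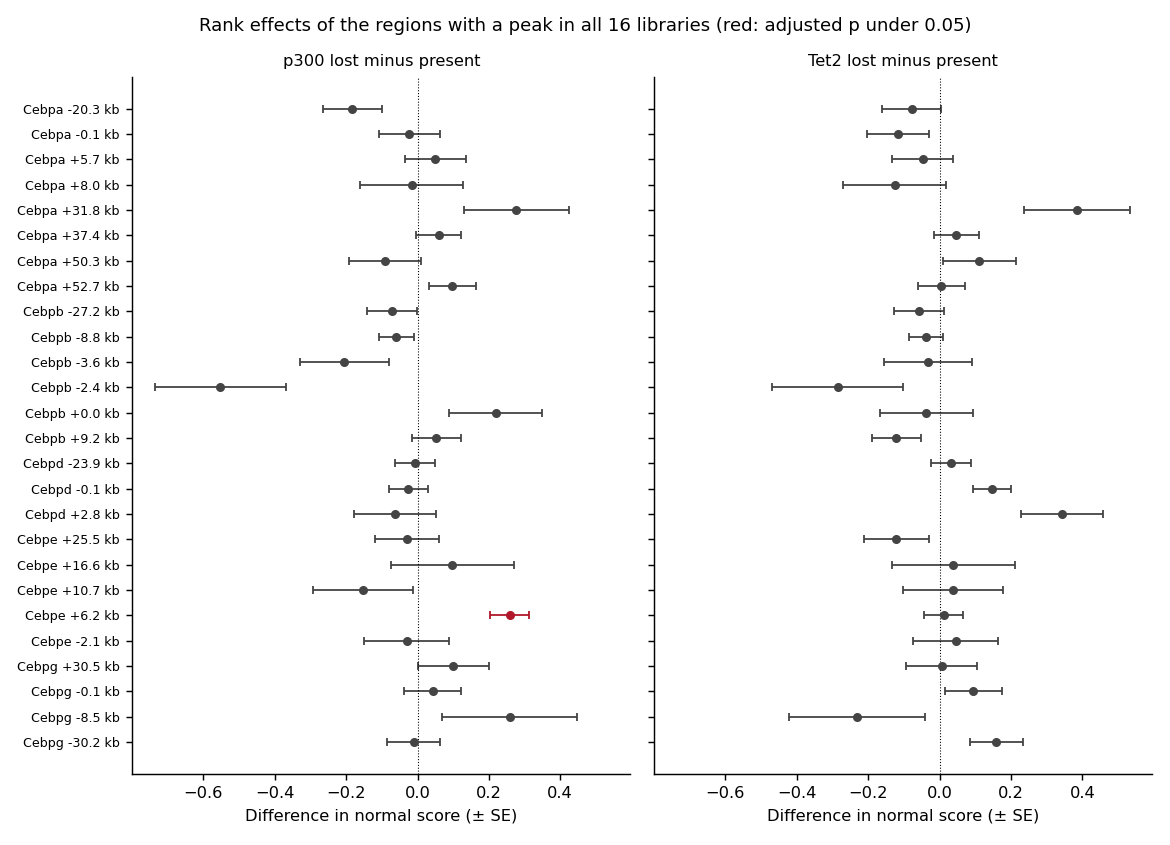
Effect of p300 loss (left) and Tet2 loss (right) on the normal score of rank (x axis, lost minus present, with the standard error) for the 26 regions present in all 16 libraries (y axis). Cebpe +6.2 kb at 0.26 for p300 loss is the only value past an adjusted p of 0.05 (red), while Cebpb -2.4 kb, at -0.55 with an error of 0.18, did not pass.

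No region of the 5 windows was gained or lost outright, that is, listed by 4 of 4 libraries on one side of a contrast and by 0 on the other. Genome-wide such regions made up 0.0598% gained and 0.0128% lost in P300KO_TET2KO against TET2KO, 0.0132% and 0.0105% in P300KO against WT, 0.0142% and 0.00709% in TET2KO against WT, and 0.0652% and 0.0307% in P300KO_TET2KO against P300KO. Shares of this size give less than 1 region among 104. When 3 or 4 libraries on one side and 0 or 1 on the other were accepted, the double loss had more peaks than TET2KO at 5 of the 104 regions and fewer at 0, where 1.19% and 0.522% of all regions qualified. The 5 were Cebpa +35.3 kb (3 libraries against 0), Cebpb -13.2 kb (4 against 1), Cebpb -0.6 kb, Cebpe -23.6 kb and Cebpg +13.4 kb (each 3 against 1). Against P300KO the double loss again had more at 5 and fewer at 0 (1.11% and 0.58% of all regions): Cebpa +18.4 kb, Cebpa +56.5 kb and Cebpb +26.3 kb (each 4 against 1), Cebpb -0.6 kb (3 against 0) and Cebpa +35.3 kb (3 against 1). P300KO had more than WT at 2 and fewer at 0 (0.747% and 0.589%), the Cebpe start region (3 against 0) and Cebpe -23.6 kb (3 against 1). TET2KO had more than WT at Cebpb +26.3 kb (3 against 0) and fewer at Cebpg +15.1 kb (1 against 3), where 0.642% and 0.558% of all regions qualified. These were weak sites, with median percentiles of 6.4 at Cebpa +35.3 kb, 16 at Cebpb +26.3 kb and 36.6 at Cebpb -13.2 kb.

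Counts of regions with a peak at each gene were compared next, with p300 or Tet2 labels permuted within the other genotype and the replicate set (1296 arrangements, smallest two-sided p 0.00154). At Cebpe, WT libraries had 7, 8, 9 and 9 regions, TET2KO 8, 9, 10 and 10, P300KO 10, 9, 11 and 10, and P300KO_TET2KO 10, 10, 11 and 9. The libraries without p300 were higher but overlapped the others. Their mean was 10 ± 0.8 against 8.75 ± 1.04 (SD, n = 8 per arm), a difference of 1.25 (exact permutation p = 0.0216), and 5.28% of 21938 protein-coding genes with 30 kb on either side passed an exact p under 0.05 in the same test. The difference was 1.75 within replicates 1 and 2 and 0.75 within replicates 3 and 4. It rose to 2.875 when a peak had to cover at least 50% of the region (exact p = 0.00617). The difference was 0.75 and no longer passed with the strongest 80000 peaks of each list (exact p = 0.139), and 1.0 without P300KO_TET2KO replicate 3 (exact p = 0.054).

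At Cebpa the P300KO libraries had the fewest regions on average. WT libraries had 14, 14, 15 and 17 regions and P300KO libraries 10, 11, 14 and 13, while TET2KO had 11, 11, 16 and 15 and P300KO_TET2KO 12, 14, 15 and 17. P300KO thus reached at most the lowest WT count, and the double loss overlapped TET2KO. Of the 30 regions, 9 were listed in 1 library only. WT replicate 1 alone listed Cebpa -6.5, +15.5, +44.0, +48.2 and +57.1 kb. WT replicate 2 alone listed +61.8 kb, WT replicate 4 +44.4 kb, P300KO replicate 2 +25.8 kb and TET2KO replicate 3 +30.8 kb. In WT replicate 1, 45.0% of peaks reached a -log10 q of 2, against 63.2% to 97.4% in the other libraries. The difference for p300 loss was -0.88 over both backgrounds (exact permutation p = 0.353). With Tet2 intact, P300KO averaged 12 regions against 15 in WT, and with Tet2 lost the order turned, 14.5 in the double loss against 13.25 in TET2KO. These effects differed by 4.25 regions (exact permutation p = 0.00926), and 2.06% of the protein-coding genes passed an exact p under 0.05 in that test, which was added after the counts were seen. The interaction was 3.0 with at least 50% of the region covered (exact p = 0.0185) and shrank to 1.25 when peaks under a -log10 q of 2 were dropped (exact p = 0.389). It was 2.0 with the strongest 80000 peaks (exact p = 0.0556), 5.5 within replicates 1 and 2 and 3.0 within replicates 3 and 4 (exact p = 0.0556 and 0.222, with 0.0556 the smallest that a set allows).

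The remaining genes showed no difference past the threshold with all peaks counted. Cebpb had 7 to 15 regions per WT library, 12 to 15 with p300 lost, 10 to 15 with Tet2 lost and 15 in every P300KO_TET2KO library, with differences of 1.5 for p300 loss (exact permutation p = 0.167) and 1.5 for Tet2 loss (exact permutation p = 0.0556). The difference for p300 loss was 3.5 within replicates 1 and 2 but -0.5 within replicates 3 and 4, and it passed with the strongest 80000 peaks, at 2.0 (exact p = 0.0216). The lowest value, 7, was WT replicate 1, the library with the least covered genome. Cebpd had 3 to 5 regions in every library and Cebpg 7 to 14, with differences for p300 loss of 0.12 and 0.0. For Tet2 loss 4.96% of protein-coding genes passed an exact p under 0.05, and 0 of the 5 Cebp genes did.

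**Figure D4:**
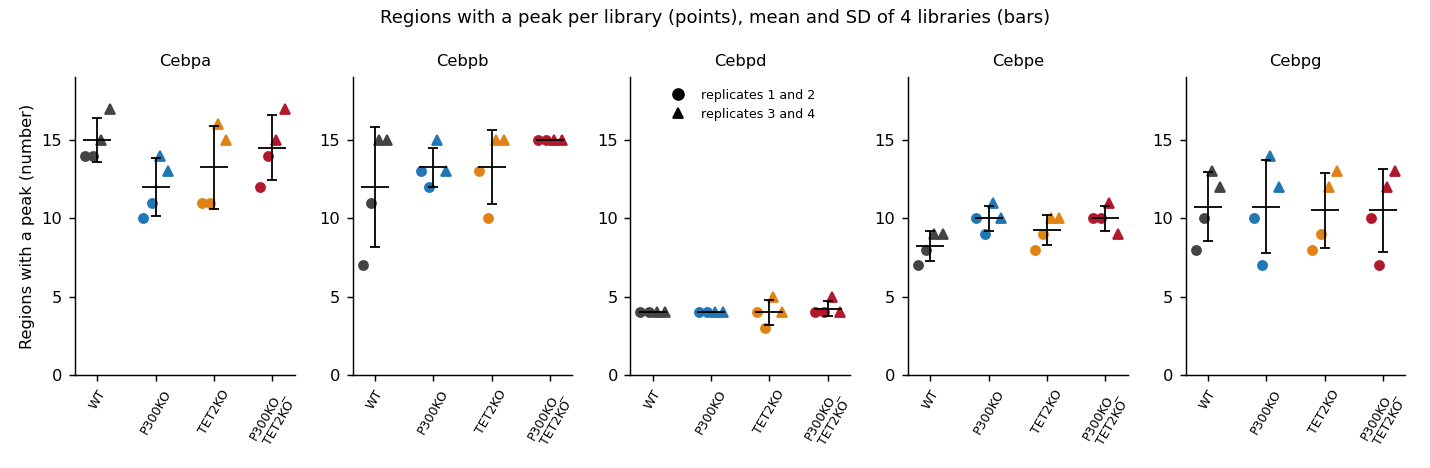
Number of regions with a peak (y axis) in each library by genotype (x axis) for the 5 gene windows, with circles for replicates 1 and 2, triangles for replicates 3 and 4 and bars for the mean and SD of 4 libraries. Replicates 3 and 4 have more regions than replicates 1 and 2 at Cebpg in every genotype, and at Cebpa the P300KO libraries span 10 to 14 against 14 to 17 in WT.

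Genes that act with C/EBP factors or answer to them were read at their starts on the same scale. Of 15 partner and regulator genes, 15 had a peak within 1 kb of the start in every library, among them Spi1, which encodes the myeloid factor PU.1, Runx1, and the C/EBP inhibitors Ddit3, Trib1 and Trib2. For p300 loss over both backgrounds 0 of these 15 rose and 1 fell (1.91% of all regions fell). That one was Gfi1, a repressor needed for granulocyte formation, which changed by -0.35 ± 0.09 (SE; limma adjusted p = 0.0361). Its percentiles were 79.8, 89.6, 84.1 and 87.0 in WT and 84.3, 80.9, 82.8 and 75.0 in P300KO, and 88.3, 88.2, 86.5 and 88.1 in TET2KO against 81.1, 81.6, 83.7 and 79.5 in P300KO_TET2KO. The last pair did not overlap, the double loss being lower, as it was in 0.903% of the 39310 regions, and the first pair did. Of 16 C/EBP target genes, 8 had a peak at the start in every library, including Csf3r and Csf2ra, receptors for granulocyte growth factors, and Mpo, a granule enzyme. The starts of the other 8 were listed in some libraries only. These were 14 for Camp, 13 for S100a8, 11 for Lcn2 and 9 for S100a9, but 5 for the late granule gene Ngp, 3 for Fcnb, 2 for the granule protease gene Elane and 1 for the monocyte receptor gene Csf1r. Of the 8 target genes tested, 0 rose and 0 fell for p300 or Tet2 loss. An unadjusted p under 0.05 was reached by 1 of the 8 for each loss, against 17.4% and 14.2% of all regions, Prtn3 at -0.29 ± 0.11 for p300 loss and Ctsg at -0.38 ± 0.17 for Tet2 loss (limma adjusted p = 0.165 and 0.312).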

How the data were processed

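ATAC-seq peak lists of mouse HSPCs were analysed, 1 list for each of 16 libraries, 4 per genotype. Per the labels and the study's methods, the authors trimmed paired reads with cutadapt 1.9.1, aligned them to mm10 with Bowtie2 2.2.6, removed duplicates, shifted reads for the transposase and called peaks for each library with MACS2 2.1.0. The deposited lists give, as computed by the authors, the fold enrichment of each summit, a ratio to local background. The -log10 p and -log10 q that the authors' peak caller gave each summit were deposited beside it, all within 1 library. Read counts were not used here, so depth is unknown and no counting interval is given.

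Several summits listed for 1 interval were taken as 1 peak. Peaks sharing 1 bp were merged, and a region was given the strongest -log10 p of a library's peaks over it. The 39310 regions present in 16 of 16 libraries were ranked per library and converted to normal scores, and limma 3.58.1 (R 4.3.3) was fitted across all of them with genotype and replicate set, trend and Benjamini-Hochberg adjustment, threshold 0.05. A peak only in some libraries thus entered presence and counts, not the rank test. Region counts per gene window were compared by exact two-sided permutation within the other genotype and replicate set (Python 3.11.15), with all 21938 protein-coding genes as background. Libraries are separate pools of mice, and what differed between the 2 replicate sets is not stated. Merging, permutation and the rank test were tested on simulated data. For p300 loss over 39310 regions, 13 of 100 planted shifts of 0.25 and 46 of 100 of 0.5 were recovered, with 3 other regions called.

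Regions to name were chosen by rule: the region at each start, all others in 16 of 16 libraries, the region nearest 37 kb from the Cebpa start, the 3 smallest p of each contrast, gained or lost regions and the 5 strongest distal regions. The weak regions listed by the looser presence rule, the fold enrichment values and the repeat at Cebpe +6.2 kb were picked with their values known. The members and gene lists were chosen with earlier results of these data known. Alternatives were a -log10 q of 2, the strongest 80000 peaks, at least 50% of a region covered, other filters, measures and terms in the fit, each replicate set alone, a replicate block and leaving out each library. The exact permutation of single region scores, the interaction of both losses on region counts and the same alternatives for the effects over both backgrounds were added after the data were seen.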

Additional observations from a re-analysis of the deposited data

Results flagged for a closer look

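Of 56 groups of 4 libraries checked (counts at the 5 genes and percentiles of 9 regions), 3 held a library whose gap to its nearest neighbour, as a share of the group's range, was past the critical value of Dixon's test at 95%, and chance gives about 1 in 20 such groups. At the Cebpg start, P300KO replicate 3 was highest with a percentile of 98.3, while the other P300KO libraries stood at 97.7 to 97.8. At the Cebpa start, TET2KO replicate 3 was lowest with 95.9, against 96.7 in the others. At Cebpd, P300KO_TET2KO replicate 3 had 5 regions with a peak and the others 4. Where the other libraries tie, as here, any different count passes the critical value, so this flag was fixed by the ties. The rate of 1 in 20 does not hold for such counts.

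The effect of p300 loss on the number of regions with a peak at Cebpa differed between Tet2 backgrounds by 4.25 regions (exact permutation p = 0.00926, 1 of 5 genes checked). Counts averaged 15 ± 1.41 in WT and 12 ± 1.83 in P300KO, against 13.25 ± 2.63 in TET2KO and 14.5 ± 2.08 in P300KO_TET2KO (SD, n = 4 each). The values at a stricter q and with equal list lengths, where the difference did not pass, are given with the counts above.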

How the results depend on the processing

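For p300 loss, the Cebpe count difference was 0.75 with the strongest 80000 peaks (exact permutation p = 0.139), 1.75 and 0.75 in replicates 1 and 2 or 3 and 4 alone (exact p = 0.0556 and 0.444) and 1.0 to 1.5 without single libraries, losing its call without P300KO_TET2KO replicate 3, but 2.875 with at least 50% of the region covered (exact p = 0.00617). Cebpb gave 2.0 with the strongest 80000 peaks (exact p = 0.0216) and -0.5 in replicates 3 and 4 alone, and Cebpa 0.25 with at least 50% of the region covered. For Tet2 loss, Cebpg gave 0.25 at a -log10 q of 2, 0.375 with 50% covered and -0.625 to 0.125 without single libraries, turning positive without P300KO replicate 1 or P300KO_TET2KO replicate 2. Cebpd gave -0.25 with 80000 peaks and in replicates 1 and 2, and Cebpa -0.25 in replicates 1 and 2 and 1.75 with 50% covered (exact p = 0.0494). Leaving out single libraries gave 1.0 to 2.0 at Cebpb, past the threshold without P300KO replicate 3, and 0.25 to 0.75 at Cebpe, past it without P300KO_TET2KO replicate 4. The interaction at Cebpa was 3.0 with 50% covered (exact p = 0.0185), 1.25, 2.0, 5.5, 3.0 and, without the replicate sets, 4.25 (exact p = 0.389, 0.0556, 0.0556, 0.222 and 0.0763, for a -log10 q of 2, 80000 peaks, replicates 1 and 2, replicates 3 and 4, and no sets), and 3.75 to 4.75 and past the threshold in 16 of 16 fits without single libraries. At Cebpb it was -1.0 with 80000 peaks and -0.5 to 1.5 without single libraries, negative without WT replicate 2 or TET2KO replicate 2.

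Gained or lost regions, 0 in each contrast, numbered 5 for the double loss against either single loss and 2 for either single loss against WT under the looser rule. They numbered 1 for the double loss against TET2KO with 80000 peaks and 1 for P300KO against WT with 50% covered. Without single libraries they numbered 0 to 2 for the double loss against P300KO (1 without P300KO replicate 2 or P300KO_TET2KO replicate 4, 2 without P300KO replicate 3) and 0 to 1 for the others (1 without TET2KO replicate 4 or P300KO_TET2KO replicate 1 for the double loss against TET2KO, without P300KO replicate 2 for P300KO against WT, and without TET2KO replicate 2 for TET2KO against WT). With 80000 peaks, with 50% covered and without single libraries, the share of all regions that qualified was not computed. Leaving out a library also makes the rule easier to meet, so these counts cannot be set against all regions. Regions called for P300KO_TET2KO against TET2KO numbered 1 of 26 on the percentile scale (0.12% of all regions), 1 of 43 in replicates 3 and 4 (1.52%), and 0 to 1 without single libraries, 1 without WT replicate 1, WT replicate 2 or P300KO replicate 2 (0.521%, 0.221% and 0.212%). For p300 loss over both backgrounds limma called 0 without the presence filter (0.0054% of all regions), by fold enrichment (2.01%), without the set term (0.511%) or in replicates 1 and 2 (0%), with 8 of 104, 8 of 26, 2 of 26 and 4 of 26 at an unadjusted p under 0.05. Over all regions 16674 of 296215, 8930 of 39310, 4422 of 39310 and 3441 of 39440 had such a p in these settings. For p300 loss limma called 2 of 26 on the percentile scale (3.03%), 3 of 43 in replicates 3 and 4 (6.7%), and 1 to 2 without single libraries (2 without P300KO replicate 2, 2.83%). Cebpe +6.2 kb was called in 16 of 16 fits that left out a library, at 0.23 to 0.28. By fold enrichment it was -0.063 for P300KO_TET2KO against TET2KO, -0.045 for P300KO against WT and -0.054 for p300 loss. Cebpd -0.1 kb was -0.094 for P300KO_TET2KO against P300KO and -0.013 for Tet2 loss by fold enrichment, and Cebpe +25.5 kb 0.061 for P300KO_TET2KO against P300KO in replicates 3 and 4. The cause was not tested.

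Deviations of same-numbered libraries correlated at -0.121 to 0.053, so the numbers did not pair the libraries, and the replicate block changed no call: Cebpe +6.2 kb gave 0.26 (limma adjusted p = 0.0162), the Cebpe count 1.25 (exact p = 0.0469) and the Cebpa interaction 4.25 (exact p = 0.0312). Without read counts, a peak missing from a list is a peak below the caller's threshold and need not be closed chromatin.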
